A study of Homo sapiens with 26 samples.

Results

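The metallothionein cluster on human chromosome 16 was described by the glucocorticoid receptor (GR) regions that lie in it, chosen as all regions of the authors' table that start between 56550000 and 56750000 in hg38. This rule uses position only, and it found 5 of 10740 regions, each 400 bp wide. They are called A to E here, in the order of the chromosome. Regions A, B and C surround MT2A, D lies just upstream of the pseudogene MT1DP, and E lies just upstream of MT1X. GR occupancy was measured by chromatin immunoprecipitation with sequencing (ChIP-seq) in A549, an established human lung carcinoma line. All cells had been infected with an adenovirus, which carried green fluorescent protein in the controls (Ad-GFP) and a form of IκBα, the NF-κB inhibitor protein, in the others (Ad-IκBαΔN). They were kept in serum-free medium, and within each virus they were left unstimulated (NS), given 300 nM budesonide, a synthetic glucocorticoid, for 1 h (Bud), or given budesonide with 1 ng/ml interleukin-1β for 1 h (IL1B+Bud). Each of these 6 groups had 2 GR libraries from 2 independent experiments, but the table gives 1 value per region and group. No difference below therefore has a replicate check, and none is given a p-value.

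Metallothioneins are small, cysteine-rich proteins that bind zinc, copper and cadmium and buffer the free level of these metals. MT2A and the MT1 genes lie side by side, and metals switch them on through metal response elements, short promoter sequences bound by the factor MTF-1. MT2A is also a classical glucocorticoid target. When a glucocorticoid enters the cell, GR moves to the nucleus and binds glucocorticoid response elements (GREs), paired half-sites in inverted orientation, as well as sites shared with other factors. NF-κB is the main transcription factor through which interleukin-1β acts on genes, and IκBα holds it in the cytoplasm. Nothing in the table measures RNA, so neither the cell type nor the activity of these genes could be checked from it.

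Region A lay 1438 to 1039 bp upstream of the MT2A transcription start site, between genes. Region B lay 454 to 55 bp upstream of the same start, in the proximal promoter, with 584 bp between A and B. Region C lay 1618 to 2017 bp downstream of the MT2A start, past the end of the gene, in an intron of the antisense-strand long non-coding RNA ENSG00000260823. Region D lay 150 bp upstream of MT1DP and 4510 bp downstream of the start of MT1A. The gene start nearest to D was that of the long non-coding RNA ENSG00000291095, 35 bp away. Region E ended 3 bp upstream of the start of MT1X. Of the 8 functional metallothionein genes followed here, MT2A had 3 regions within 5 kb of the gene, MT1A and MT1X had 1 each, and MT1E, MT1M, MT1F, MT1G and MT1H had 0. The starts of those genes were 10517 bp (MT1M) to 14874 bp (MT1E) from the nearest region. The table holds regions the authors selected, so a gene without one is not shown to lack GR.

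**Figure D1:**
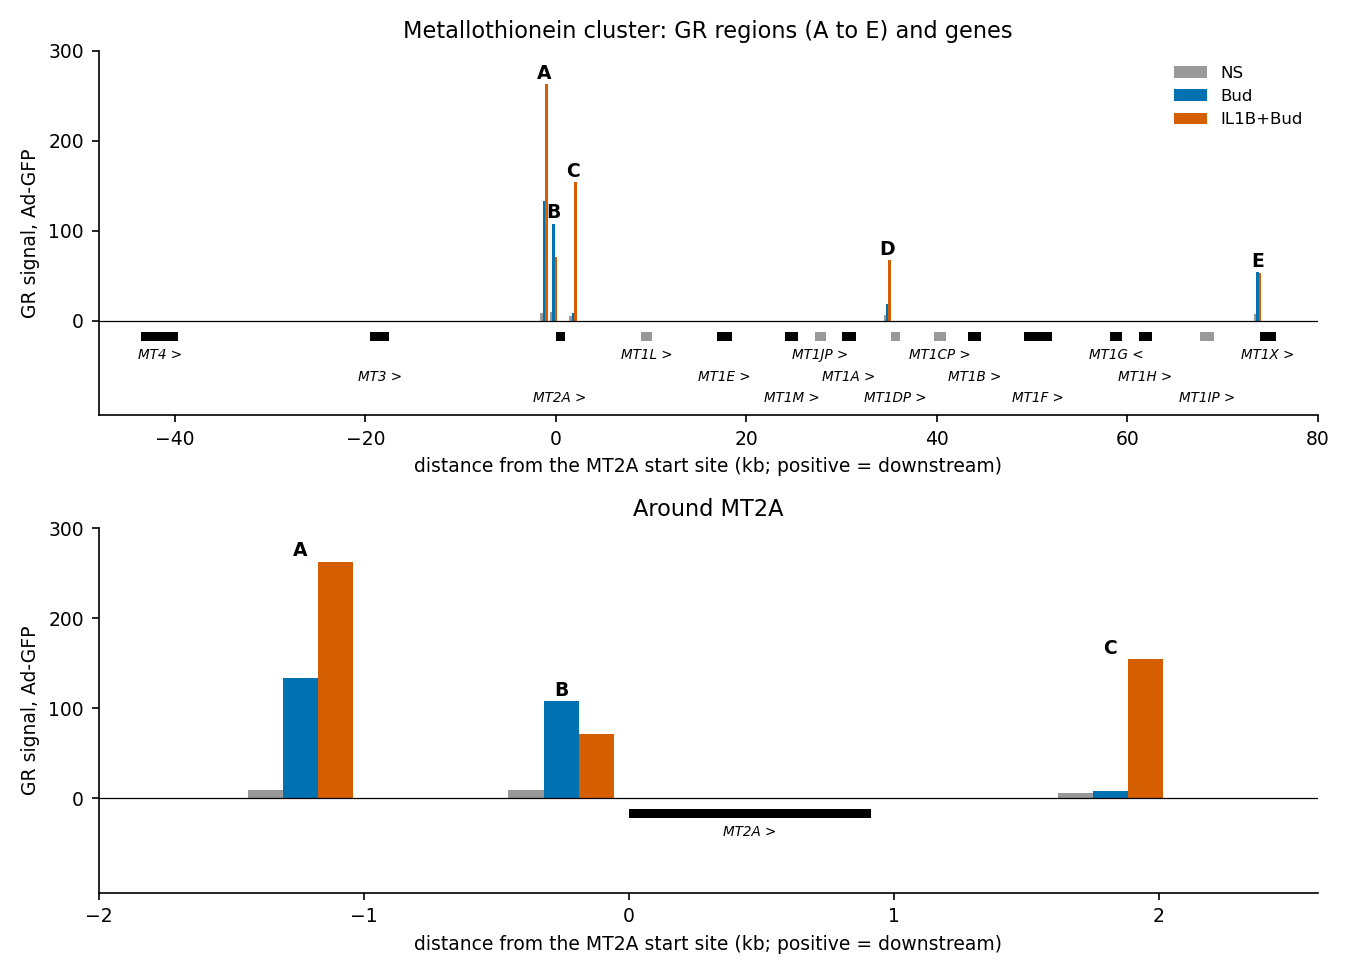
Position of the 5 GR regions and of the metallothionein genes, with the GR signal of Ad-GFP cells (linear axis) in NS, Bud and IL1B+Bud. Distances are in kb from the MT2A start; black boxes are protein-coding genes, grey boxes pseudogenes, > and < the strand; in the upper panel the bars are drawn wider than the regions. The tallest bars, 263 at A and 154 at C, are those of IL1B+Bud, while at B the Bud bar (108) is taller than the IL1B+Bud bar (71.1).

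The sequences below give 300 bases of each region from hg38, plus strand, 5′ to 3′. Capitals mark GRE matches in A, a GRE-like stretch, an AP-1 site and metal response element cores in B, a stretch close to the κB motif in C, and metal response element cores in D and E. Stretches as close to the κB motif in A, D and E, and a GRE-like stretch in C, are not marked.
Region A, chr16:56607146-56607445: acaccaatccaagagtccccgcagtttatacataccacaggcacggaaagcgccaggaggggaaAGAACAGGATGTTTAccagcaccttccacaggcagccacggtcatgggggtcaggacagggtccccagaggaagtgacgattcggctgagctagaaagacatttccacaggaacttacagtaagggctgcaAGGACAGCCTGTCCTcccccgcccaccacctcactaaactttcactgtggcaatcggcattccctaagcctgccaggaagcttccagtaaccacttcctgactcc
Region B, chr16:56608230-56608529: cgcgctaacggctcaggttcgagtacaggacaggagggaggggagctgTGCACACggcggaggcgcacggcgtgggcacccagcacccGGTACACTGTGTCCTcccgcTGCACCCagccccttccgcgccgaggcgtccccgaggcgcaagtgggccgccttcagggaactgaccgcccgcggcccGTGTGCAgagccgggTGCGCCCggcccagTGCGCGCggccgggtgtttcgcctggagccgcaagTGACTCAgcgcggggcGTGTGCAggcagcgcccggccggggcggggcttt
Region C, chr16:56610262-56610561: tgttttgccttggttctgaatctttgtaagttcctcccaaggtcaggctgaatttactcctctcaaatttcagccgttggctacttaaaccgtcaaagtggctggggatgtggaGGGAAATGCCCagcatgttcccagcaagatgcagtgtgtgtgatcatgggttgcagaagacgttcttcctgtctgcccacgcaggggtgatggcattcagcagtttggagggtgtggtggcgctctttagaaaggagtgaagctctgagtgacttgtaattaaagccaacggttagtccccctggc
Region D, chr16:56643276-56643575: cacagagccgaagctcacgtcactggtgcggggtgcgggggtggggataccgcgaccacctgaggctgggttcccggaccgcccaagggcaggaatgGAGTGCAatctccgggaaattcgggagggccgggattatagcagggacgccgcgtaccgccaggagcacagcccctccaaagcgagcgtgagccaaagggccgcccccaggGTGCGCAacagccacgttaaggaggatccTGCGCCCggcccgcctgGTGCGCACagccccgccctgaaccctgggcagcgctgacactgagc
Region E, chr16:56682168-56682467: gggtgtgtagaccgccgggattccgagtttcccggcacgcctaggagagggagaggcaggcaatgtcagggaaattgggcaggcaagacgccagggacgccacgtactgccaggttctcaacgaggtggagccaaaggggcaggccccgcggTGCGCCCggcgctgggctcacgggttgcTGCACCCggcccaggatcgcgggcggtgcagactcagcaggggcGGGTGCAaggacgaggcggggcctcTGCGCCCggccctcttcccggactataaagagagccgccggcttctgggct

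The 5 regions differed in the motif matches they held. The GRE was searched on both strands as AGAACA and TGTTCT with any 3 bases between them, allowing at most 2 mismatches in the 12 fixed bases. Only A held it, with 2 matches, AGAACAGGATGTTTA and AGGACAGCCTGTCCT. Over all regions 14.7% held at least 1 match and 0.978% held 2 or more, against 2.63% of windows 5 kb away with at least 1. With at most 3 mismatches, a setting chosen after seeing the data, B held GGTACACTGTGTCCT, 266 to 252 bp upstream of the MT2A start. C then held 2 matches, and 45.1% of all regions held at least 1, so such matches are common. A count of mismatches does not decide whether the stretch in B is a working GRE, and the limit of 2 does not show that B lacks one. The metal response element core, searched as TGCACNC or TGCGCNC on both strands, occurred 6 times in B, 6 times in D and 4 times in E, and it was not found in A or C. In D, 2 of the matches overlap each other on opposite strands. At least 1 core was found in 21.6% of all regions, but 6 or more in only 0.0466%, a share that includes B and D themselves. Among regions centred within 500 bp of a protein-coding start, 34.7% held at least 1 core. The AP-1 motif TGACTCA was found in B, 104 to 98 bp upstream of the start, and in 22.8% of all regions. The κB motif was found in 0 of the 5 members and in 21.3% of all regions. With 1 mismatch allowed, also chosen after seeing the data, it was found in all members but B and in 63.5% of all regions. In C the 2 matches overlap on opposite strands over the same stretch, GGGAAATGCCC.

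B, D and E were also rich in G and C. Their GC content was 68.5%, 67.3% and 67.5%, against a median of 44.5% over all regions, while A and C had 56.3% and 51.0%. CpG counts were 41, 31 and 33 in B, D and E, and 13 and 8 in A and C, against a median of 4. D and E could be aligned over 314 bases with 71.3% identity, and B and E over 288 bases with 69.1%. No stretch of 50 bases in any member recurred exactly within 400 kb around the cluster, and the longest exact copy was 34 bases, in C. The sources used here do not give how reads matching several copies were treated. In RefSeq (GRCh38.p14), 3 of the 8 genes had a promoter sequence, which runs from 250 bases before to 50 after the start. The MT2A and MT1H promoters each held 8 metal response element cores, a number reached by 0.0199% of 35116 promoters, and MT1X held 4. MT1H nonetheless had no region within 5 kb, and its start lay 12254 bp from E.

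Unstimulated cells had low and much alike GR signal at all 5 regions. The signal was obtained by raising 2 to the deposited log2 value and subtracting 1, and is read as a mean coverage. In Ad-GFP it was 9.18 at A, 9.52 at B, 5.72 at C, 6.78 at D and 7.96 at E, around a median of 7.58 over all regions. In Ad-IκBαΔN it was 7.00, 7.93, 11.0, 8.15 and 7.28 in the same order, with a median of 7.79. C was thus the lowest member in one virus and the highest in the other. As deposited no member differed 2-fold between viruses, while of all regions 7.21% were 2-fold higher with the inhibitor and 2.77% lower. With quantile normalization C was higher by 2.25 on the log2 scale, while 2071 regions were higher and 2114 lower.

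With budesonide alone, the regions upstream of MT2A and MT1X stood far above the unstimulated level, and C did not. At A, the distal MT2A region, the Ad-GFP signal was 9.18 in NS and 133 in Bud, a 13.2-fold difference. At B, the proximal MT2A promoter, it was 9.52 and 108, or 10.4-fold. These levels placed A and B at percentiles 96.8 and 95.2 of all regions in Bud. At E, the MT1X promoter, the signal was 7.96 and 54.2, or 6.17-fold, at percentile 84.1. At D it was 6.78 and 18.3, a 2.48-fold difference whose direction turned when groups were scaled to a common median, and D lay at percentile 43.9 in Bud. At C it was 5.72 and 8.63, 1.43-fold, and its percentile was 29.0 in NS and 29.7 in Bud. Folds here and below are taken on the scale of signal plus 1. In all, 4 of the 5 members were at least 2-fold higher with Bud in Ad-GFP, against 57.9% of all regions, and 0 were 2-fold lower, against 8.14%. Their median log2 difference was 2.62 and that of all regions 1.37. Only 3 members were higher with groups at a common median, and 2 either with the unchanged class as the centre or with quantile normalization. C then turned to -0.89 at a common median and to -1.41, 2-fold lower, centred on the unchanged class, where E had 0.70. A and B were 2-fold higher in each scaling. The background counts depend on scaling: 6217 regions were higher and 874 lower as deposited, and 2614 and 3500 with groups at a common median.

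Budesonide gave nearly the same picture under the NF-κB inhibitor. In Ad-IκBαΔN the signal went from 7.00 in NS to 122 in Bud at A, from 7.93 to 103 at B and from 7.28 to 47.3 at E. At C it was 11.0 and 11.9, and at D 8.15 and 18.8. Again 4 of 5 members were at least 2-fold higher, against 59.3% of all regions, and 0 lower, against 1.06%, with a median of 2.54 beside 1.37. At a common median, centred on the unchanged class and quantile normalized, 3, 2 and 3 members were higher, and C was 2-fold lower in each, at -1.26, -1.74 and -2.17. Of all regions, 2026, 1092 and 2306 were then 2-fold higher, in that order. Those 2-fold lower numbered 2923, 3989 and 2343, so the lower value of C was shared by many regions. Set directly against Ad-GFP in Bud, the members differed by log2 -0.19 (E) to 0.42 (C), and 0 of 5 were 2-fold apart, beside 4.02% (higher) and 0.0186% (lower) in the whole table. The order of the 5 regions by level, A, B, E, D and C, was the same in both viruses with Bud. A and B were close in that order, with an A to B ratio of 1.23 without and 1.18 with the inhibitor.

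**Figure D2:**
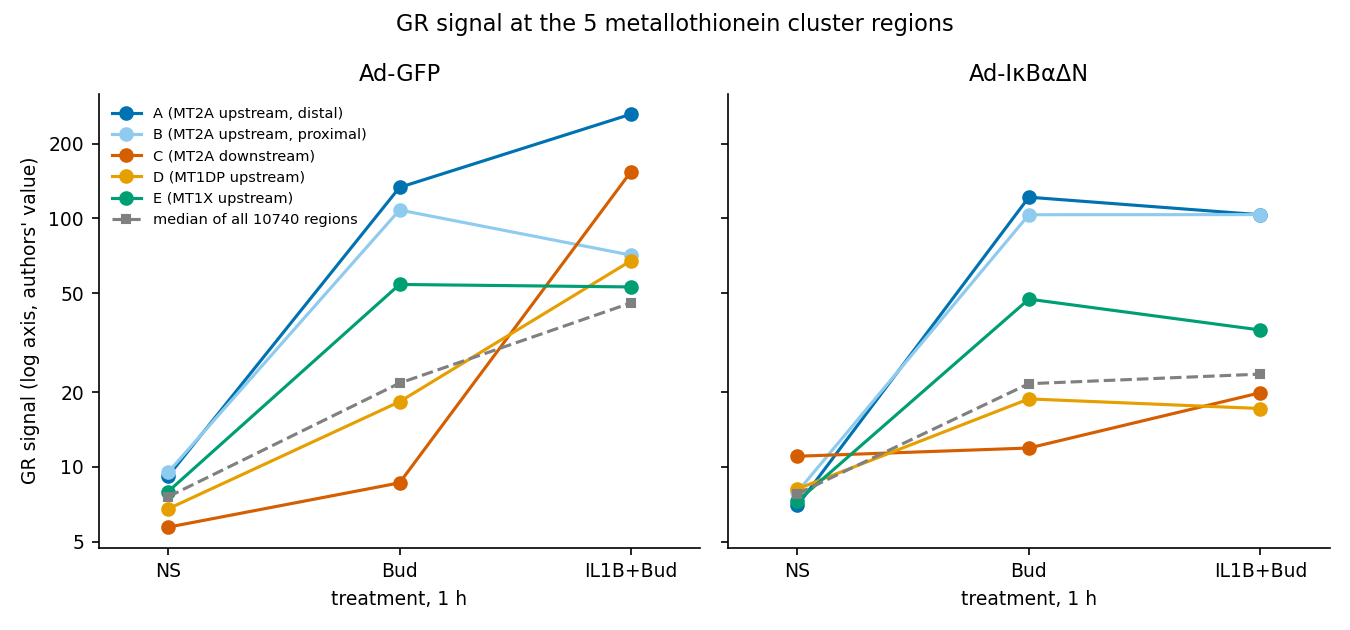
GR signal (log axis) at each of the 5 regions in NS, Bud and IL1B+Bud with Ad-GFP in the left panel and Ad-IκBαΔN in the right, 1 authors' value per point, with the median of all 10740 regions in grey. In Ad-GFP, C goes from 8.63 in Bud to 154 in IL1B+Bud and B from 108 to 71.1; in Ad-IκBαΔN the same regions go from 11.9 to 19.9 and from 103 to 104.

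The 3 regions around MT2A differed from each other once IL1B was added to budesonide in Ad-GFP. At C, downstream of the gene, the signal was 8.63 in Bud and 154 in IL1B+Bud, a 16.1-fold difference at percentile 93.3 of all regions. At A it was 133 and 263, 1.96-fold. At B, 984 bp from A, it was lower, 108 and 71.1, a log2 difference of -0.60. Over all scalings and pseudocounts tried, C was higher by 2.07 to 4.12 on the log2 scale and B had -2.14 to -0.57. The direction at A turned with the scaling, from 0.98 down to -0.60. At D, near MT1DP, the signal was 18.3 and 67.5, 3.55-fold, and at least 0.29 on the log2 scale under each scaling. At E, the MT1X promoter, it was 54.2 and 53.0, within 2-fold as deposited, with log2 differences of -1.56 to -0.03 over the scalings. As deposited, 2 of 5 members were at least 2-fold higher, against 48.9% of all regions, and 0 lower, against 6.07%. The members' median of 0.97 was close to the 0.92 of all regions. With steps divided out, the background was 3253 regions higher and 4695 lower, in place of 5252 and 652. Under the 4 scalings 1 or 2 members were higher and 1 or 2 lower, B being 2-fold lower in each and E also at a common median (-1.07) and with steps divided out (-1.56).

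Ratios between members of one group do not change when the whole group is multiplied by 1 factor. Quantile normalization, which works by rank, does change them: with it the log2 difference between IL1B+Bud and Bud in Ad-GFP was 2.07 at C and -1.03 at B, in place of 4.01 and -0.60. The A to B ratio of the signals was 0.96 in NS, 1.23 in Bud and 3.69 in IL1B+Bud of Ad-GFP. In Ad-IκBαΔN it was 0.88, 1.18 and 1.00. The B to C ratio was 12.5 in Bud and 0.46 in IL1B+Bud of Ad-GFP, so that the order of these regions was exchanged. It was 8.68 and 5.21 in Ad-IκBαΔN, where B stayed above C. Of the summed signal of the 5 regions in Ad-GFP, C held 2.68% in Bud and 25.3% in IL1B+Bud, and B held 33.5% and 11.7%. In Ad-IκBαΔN, C held 3.93% and 7.11%, and B 34.1% and 37.0%. A held between 37.0% and 43.2% of the sum in the 4 treated groups.

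**Figure D3:**
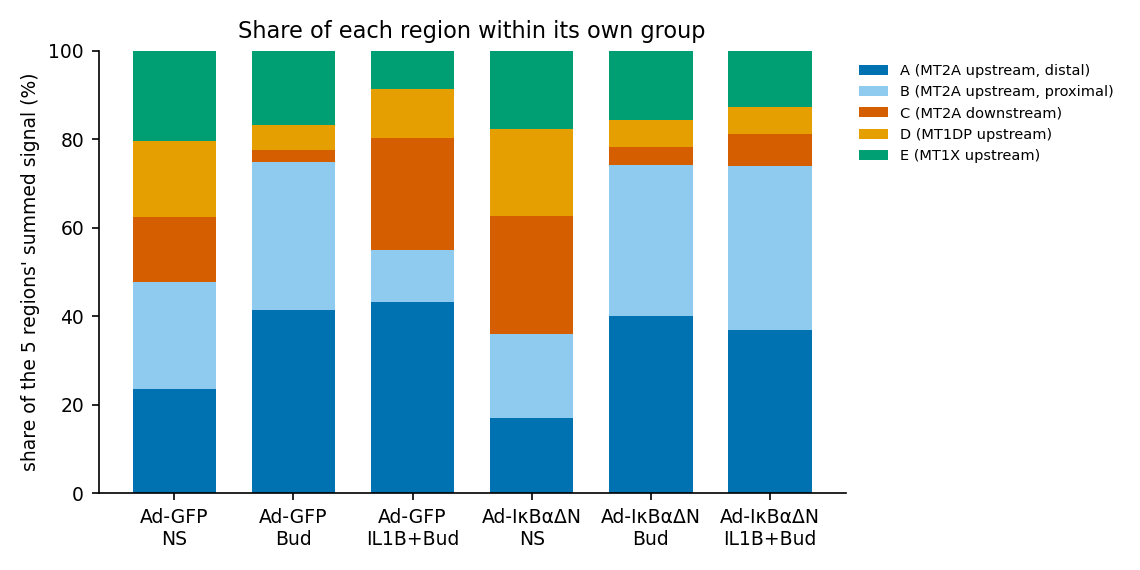
Share of the summed GR signal of the 5 regions that falls on each region, within each of the 6 groups (bars reach 100%; 1 authors' value per group). C takes 25.3% in IL1B+Bud of Ad-GFP but 7.11% in the same treatment of Ad-IκBαΔN, and B takes 11.7% and 37.0%.

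In Ad-IκBαΔN, each member was within 2-fold of its Bud level once IL1B was added. The signal was 122 in Bud and 103 in IL1B+Bud at A, and 103 and 104 at B. At C it was 11.9 and 19.9, a log2 difference of 0.69, which was the highest of the 5. At D it was 18.8 and 17.2, and at E 47.3 and 35.6. None of the 5 members was 2-fold higher or lower as deposited, beside a background of 9.65% higher and 0.94% lower, and their median was -0.12 beside 0.26 for all regions. Subtracting the Ad-GFP difference from that of Ad-IκBαΔN gave -3.32 at C, -1.95 at D and -1.21 at A on the log2 scale, and 0.60 at B. At E it was -0.37, and turned to 0.60 at its highest among the scalings. In all 3 of 5 members were at least 2-fold lower in this difference, against 47.4% of all regions, and 0 higher, against 7.98%. Under each of the 4 scalings B was at least 2-fold higher, at 1.01 to 1.57, and only 1 or 2 members were lower, with D at -0.98 quantile normalized and -0.95 with steps divided out. Of all regions, 3011 were then higher and 3435 lower at a common median, and 1669 and 4404 centred on the unchanged class. The counts were 2662 and 2664 quantile normalized, and 3062 and 3284 with steps divided out. The members' median of -1.21 was -0.21 with the deposited steps divided out, a scaling under which A itself had -0.21.

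**Figure D4:**
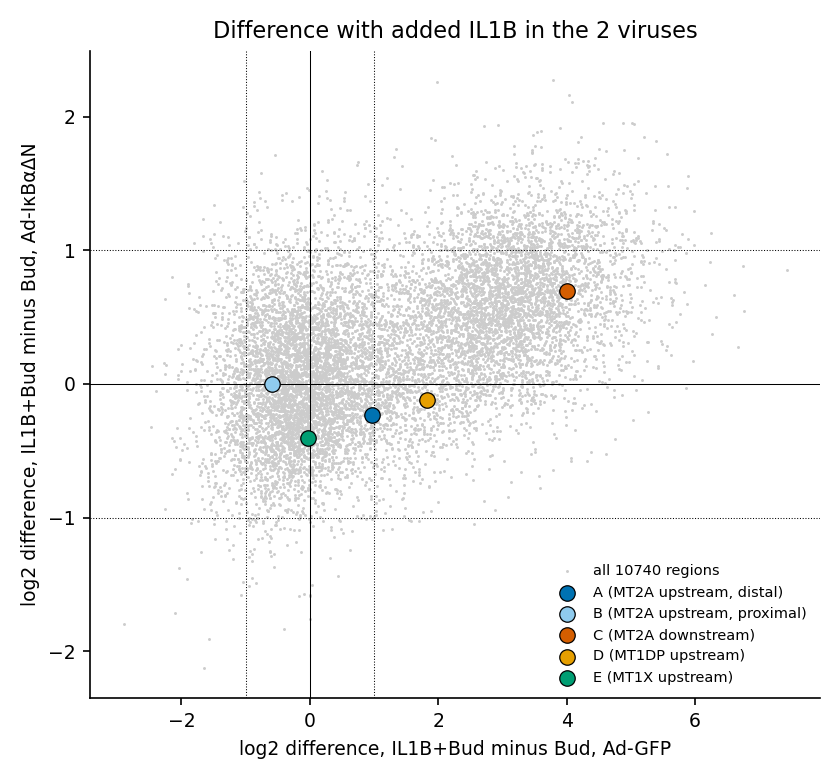
Log2 difference between IL1B+Bud and Bud in Ad-GFP (x axis) and in Ad-IκBαΔN (y axis) at all 10740 regions (grey) and the 5 members (coloured); both axes use the deposited values and dotted lines mark 2-fold. C lies at 4.01 and 0.69, D at 1.83 and -0.12, A at 0.97 and -0.23, B at -0.60 and 0.00, and E at -0.03 and -0.40.

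With IL1B+Bud itself, the viruses differed in both directions within the cluster. At C the signals were 154 without and 19.9 with the inhibitor, 7.43-fold lower in the latter. D had 67.5 and 17.2, A 263 and 103, and E 53.0 and 35.6. As deposited B was the exception, with 71.1 in Ad-GFP and 104 in Ad-IκBαΔN, which is 0.54 on the log2 scale and no less than 0.51 in any alternative. E turned to 0.36 at a common median, 0.31 with quantile normalization and 0.40 with steps divided out. As deposited, 3 of 5 members were 2-fold lower in Ad-IκBαΔN, against 46.5% of all regions, and 0 higher, against 5.97%. Those same 3 scalings each gave 1 member lower (C) and 1 higher (B, at 1.17 or more on the log2 scale). Of all regions they gave 2619, 2606 and 2407 lower and 2729, 2633 and 2758 higher, in that order. Against NS, IL1B+Bud gave 5 of 5 members at least 2-fold higher in Ad-GFP, against 93.7% of all regions, and 3 of 5 in Ad-IκBαΔN, against 69.1%. The 2 short of it in Ad-IκBαΔN were C (1.73-fold) and D (log2 0.99). At a common median, centred on the unchanged class or quantile normalized, only A and C remained 2-fold higher in Ad-GFP, with B at 0.10 to 0.36 and E at 0.09 to 0.17. In Ad-IκBαΔN, 2 members (A and B) remained, and C was 2-fold lower with the latter 2 scalings (-1.14 and -1.86). Of all regions, those 2 scalings gave 1003 and 2219 at least 2-fold higher and 3041 and 2279 lower. The comparisons with Bud and with NS share the IL1B+Bud values and are not independent of each other.

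The authors' own classes placed A, C and D among 4345 increasing regions and B and E among 3411 unchanged ones, with no member among the 2984 decreasing ones. The sources used here do not give how the classes were made. A was unusual within its class. Its Bud minus NS difference in Ad-GFP, 3.72, lay at percentile 99.3 of the increasing class, whose median was -0.06. Its IL1B+Bud minus Bud difference lay at percentile 6.40, below most regions of that class. C was nearer to its class in both, at percentiles 67.1 and 84.2. B, with -0.60 for added IL1B, lay at percentile 11.4 of the unchanged class, whose median was 0.35.

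Regions elsewhere with a pattern like that of A were found by the distance between their 6 deposited log2 values. The nearest 5 were linked to TCIM (distance 0.29), ZBTB38 (0.38), PAX8 (0.57), NFKBIA (0.58) and BORCS5 (0.61), 21.3 to 42.5 kb from the start of each gene. Only the PAX8 region was in the increasing class, as A was, and the others were in the unchanged class. At the TCIM region the Ad-GFP signal was 149 in Bud and 279 in IL1B+Bud, against 133 and 263 at A. In Ad-IκBαΔN it was 125 and 104, against 122 and 103.

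Set beside other glucocorticoid targets, the MT2A regions had lower budesonide signal than the lead regions of FKBP5 (455), DUSP1 (287), KLF9 (249.9) and PER1 (224) in Ad-GFP. Lead means the region of the highest mean log2 value among those linked to a gene. ZFP36 had 997, and TSC22D3 had no linked region. With added IL1B, log2 differences were -0.92 at FKBP5, -1.14 at ZFP36, -1.02 at PER1 and -0.49 at KLF9, and 0.36 at DUSP1. Beside these stand 0.97 at A, the lead region of MT2A by this measure, -0.60 at B and 4.01 at C. C, the member with the largest difference with added IL1B, can be set beside lead regions of inflammatory genes. The mean that chose those lead regions includes IL1B+Bud. Of all regions, 48.9% were at least 2-fold higher with added IL1B in Ad-GFP. At C, 8.63 in Bud and 154 in IL1B+Bud stand beside 6.41 and 249 at ICAM1, 23.7 and 387 at CXCL8, 23.8 and 387 at CCL2 and 56.0 and 462 at TNFAIP3. In Ad-IκBαΔN with IL1B+Bud, those 4 had 15.6, 17.7, 32.3 and 32.2, and C had 19.9. A and B, with 133 and 108 in Bud of Ad-GFP, lay above all 4 there.

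Other genes of metal handling were taken from a list, with regions linked over up to 100 kb. Of 31 listed zinc and copper genes, 8 had a linked region, 15 regions in all. With Bud in Ad-GFP, 7 of the 15 were at least 2-fold higher and 4 lower, against 57.9% and 8.14% of all regions, and their median log2 difference was 0.50 beside 1.37. In Ad-IκBαΔN, 9 were higher and 1 lower, against 59.3% and 1.06%, and the median of 1.28 was close to the 1.37 of all regions. SLC39A14, a zinc and iron importer, had signals of 11.6 in NS and 112 in Bud, and SLC39A10, another zinc importer, 8.51 and 63.8. At the other end, SLC39A8, an importer of zinc and manganese, had 8.40 in NS, 3.29 in Bud and 200.1 in IL1B+Bud of Ad-GFP, but 7.95 in IL1B+Bud of Ad-IκBαΔN. SLC30A7, a zinc transporter of the Golgi, had 2.89, 2.05 and 17.0 in Ad-GFP. With added IL1B, 7 of the 15 regions were 2-fold higher in Ad-GFP and 1 lower, near the 48.9% and 6.07% of all regions. In Ad-IκBαΔN 1 was higher and 0 lower, near the background of 9.65% and 0.94%. MTF1, the gene of the metal-sensing factor, named here after its values were seen, had 6.97, 24.4 and 40.1 in NS, Bud and IL1B+Bud of Ad-GFP.

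Of 18 listed genes of glutathione and oxidative stress, 7 had a linked region and 8 of their 13 regions were at least 2-fold higher with Bud in Ad-GFP, with 2 lower. The first is near the 57.9% of all regions, and the second stands beside 8.14%. TXNRD1, thioredoxin reductase, had 5.55 in NS and 70.2 in Bud, and GPX3, a secreted glutathione peroxidase, 3.57 and 31.2. HMOX1, haem oxygenase, and GCLM, a subunit of the enzyme that starts glutathione synthesis, had little with Bud, 4.07 and 5.37, and 31.1 and 33.5 with IL1B+Bud. The region just before the window, linked to MT4 and 59.6 kb from A, had an Ad-GFP signal of 3.11 in NS, 15.6 in Bud and 28.6 in IL1B+Bud. The one just after it, linked to SLC12A3 and 178 kb from E, had 6.12, 38.5 and 28.6. Neither reached the budesonide signal of A, B or E.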

How the data were processed

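GR ChIP-seq in A549 cells gave 12 GR libraries in 6 groups, and 12 RELA and 2 input libraries that were not analysed here. The authors deposited a log2 GR intensity, 1 value per region and group, and its difference from NS. Per the submitters' processing notes, the tools were Bowtie2 2.4.4, MACS2 2.2.7.1, DiffBind 3.2, FastQC 0.10.1, SAMtools and bcl2fastq, and the build GRCh38 (hg38). The sources used here do not give how a group's 2 libraries were merged or scaled. The table writes Ad-IκBα for Ad-IκBαΔN. The signal (2 to the power of the value, minus 1), multiplied by 400 bp, fell on whole multiples (within 0.0001 steps) of 1 in NS and Bud of Ad-GFP (all but 1 region in NS) and Bud of Ad-IκBαΔN, of 3 in IL1B+Bud of Ad-GFP and of 1.5 in IL1B+Bud of Ad-IκBαΔN, with no step in NS of Ad-IκBαΔN. Groups may therefore be scaled differently, and the depth is unknown.

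Computed here were log2 differences, counts beyond 2-fold (log2 difference of 1), percentiles among 10740 regions and motif matches. Python 3.11.15, numpy 2.4.6, pandas 2.3.3, Biopython 1.88 and matplotlib 3.10.9 were used. The 2-fold count was tried on known shifts added to deposited values, and the motif search on sites planted in random sequences. Such trials check the code and not the differences between groups. No test across groups was possible with 1 value each. Coordinates count from 1; all 10740 regions lay inside hg38 chromosomes, and genes are from GENCODE 44. Regions were linked to the nearest protein-coding start within 100 kb. Named genes were all members, the 5 regions most like A outside chromosome 16, and in each list the lead regions with the largest and smallest Bud minus NS difference in Ad-GFP, up to 4, with fixed glucocorticoid and inflammatory genes beside them. The members and lists were chosen with earlier results of these data known. A list of neighbouring genes is not reported here. Alternatives were 4 scalings, pseudocounts of 5 and 0.25, a filter on low values, a 5 kb window around the genes, and motif settings.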

Additional observations from a re-analysis of the deposited data

Results flagged for a closer look

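As deposited, in 3 of the 5 regions adding IL1B to budesonide went in opposite directions in the 2 viruses, so they were marked for a closer look. The share of all regions with opposite directions was not counted, so this is not shown to be particular to the cluster. With 1 value per group the difference between viruses was not tested. Region A, upstream of MT2A, had a log2 difference of 0.97 without the inhibitor and -0.23 with it. Region D, near MT1DP, had 1.83 and -0.12. Region B, the MT2A promoter, had -0.60 and 0.00193, the second of which is close to 0. The direction of A in Ad-GFP turned with the scaling, while D stayed above 0 and B below 0 in Ad-GFP under each scaling tried. In Ad-IκBαΔN, B was -0.12, -0.09 and -0.58 at a common median, centred on the unchanged class and with steps divided out, the same sign as in Ad-GFP.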

How the results depend on the processing

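No paired analysis was possible because the table holds 1 value per region and group, which also left out the fits without a replicate. The members' median log2 differences depended on how groups were scaled to each other, listed here as re-centred on a common median, centred on the unchanged class, quantile normalized, and with steps divided out. For Bud minus NS the median moved from 2.62 to 1.22, 0.70 and 0.78 under the first 3 in Ad-GFP, and from 2.54 to 1.18, 0.70 and 1.20 in Ad-IκBαΔN. For IL1B+Bud minus Bud in Ad-GFP, 0.97 became -0.065 re-centred, 0.31 quantile normalized and -0.60 with steps divided out. IL1B+Bud minus NS went from 3.14 to 0.70, 0.72, 0.70 and 1.60 in Ad-GFP, and from 2.14 to 0.66, 0.20 and 0.84 under the first 3 in Ad-IκBαΔN. Between viruses, Bud turned from -0.06 to 0.061 with quantile normalization. IL1B+Bud went from -1.34 to -0.41, -0.87, -0.38 and -0.34, and the response to added IL1B from -1.21 to -0.29, -0.80, -0.48 and -0.21. In Region D, Bud minus NS turned to -0.10 and -0.61 in Ad-GFP, re-centred and centred on the unchanged class, and to -0.25, -0.73 and -0.33 in Ad-IκBαΔN under the first 3. The cause was not tested beyond the scaling itself. Pseudocounts of 5 and 0.25 changed no direction or call of a median, but some counts of members changed. With 5, 3 members in place of 4 were 2-fold higher for Bud minus NS in each virus, as D fell to 0.98 and 0.85. Of all regions, 5567 (Ad-GFP) and 5606 (Ad-IκBαΔN) were then higher. With 0.25, 4 members in place of 3 were higher for IL1B+Bud minus NS in Ad-IκBαΔN, beside 7705 of all regions. The low-value filter and the 5 kb window kept all 5 members. At most 1 mismatch in the GRE left 0 members with a match, and at most 3 gave 3. The regions 2-fold higher and lower in the whole table, with the range over alternatives in parentheses, numbered 6217 and 874 for Bud minus NS, Ad-GFP (1545 to 6345 and 221 to 4374), 6373 and 114 for Bud minus NS, Ad-IκBαΔN (1092 to 6542 and 2 to 3989), 5252 and 652 for IL1B+Bud minus Bud, Ad-GFP (2744 to 5278 and 477 to 4695), and 1036 and 101 for IL1B+Bud minus Bud, Ad-IκBαΔN (94 to 1255 and 50 to 1078). They numbered 10066 and 0 for IL1B+Bud minus NS, Ad-GFP (2072 to 10164 and 0 to 2136), 7426 and 5 for IL1B+Bud minus NS, Ad-IκBαΔN (1003 to 7705 and 0 to 3041), and 774 and 298 for Ad-IκBαΔN minus Ad-GFP, NS (72 to 2071 and 50 to 2114). Between viruses they numbered 432 and 2 for Ad-IκBαΔN minus Ad-GFP, Bud (8 to 688 and 1 to 12), 641 and 4998 for Ad-IκBαΔN minus Ad-GFP, IL1B+Bud (484 to 2758 and 2407 to 5054), and 857 and 5086 for Ad-IκBαΔN minus Ad-GFP in IL1B+Bud minus Bud (683 to 3062 and 2664 to 5128). The depth of each library is unknown, and signals near 8 leave little room to see a lower level.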

Other observations

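The spacing and unequal response of the MT2A regions could be set against other neighbouring regions of the table. A, B and C start within 3056 bp of each other, and 2.23% of all regions (240) had at least 2 others starting within 3.5 kb. Over 738 pairs of neighbouring regions that start within 2.5 kb of each other, the difference with added IL1B in Ad-GFP differed between the neighbours by a median of 1.04 log2. B and C, 2072 bp apart, differed by 4.61, at percentile 99.5 of these pairs. A and B differed by 1.57, at percentile 66.7. In Ad-IκBαΔN, B and C differed by 0.69 (percentile 72.2) and A and B by 0.23 (percentile 28.5). The pairs share regions with each other, and such a difference is little affected by 1 factor applied to a whole group. Quantile normalization narrowed it, with B at -1.03 and C at 2.07 in Ad-GFP, and the percentiles were not recomputed under it. The neighbours had the same class of the authors in 55.0% of pairs.

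In unstimulated Ad-IκBαΔN cells, C stood at percentile 95.7 of all regions with a signal of 11.0, and in unstimulated Ad-GFP cells at percentile 29.0 with 5.72. The log2 values of all regions had a standard deviation of 0.304 in the first group and 0.627 in the second. A small gap in signal therefore moves the percentile further in the first. Among 274 regions centred within 500 bp of a protein-coding start, 34.7% held a metal response element core and 5.11% a GRE. B and E belong to that kind by position and held no GRE with at most 2 mismatches, the setting of these percentages. With at most 3 mismatches B held 1 match, so the MT2A promoter region is not shown to lack a GRE.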
